A study of Mus musculus with 2 samples.

Results

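The genes described here build, shape and contract the actin cytoskeleton of the mouse egg. They were taken as a fixed list of 50 gene symbols and found through the Ensembl identifiers of the deposited count table, where all 50 were present among 36227 genes. The list holds the cytoplasmic actins, the nucleators that start filaments, the Arp2/3 complex and its activators, the proteins that bind, sever or cap actin, the GTPases Cdc42, Rac1 and Rhoa with a set of kinases, the linkers of the cortex, myosins and cytokinesis genes. The rule that defines the list uses no measured value, but the list was chosen with earlier results of these data known.

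Naturally ovulated eggs of ICR mice, an outbred strain, were collected at the MII stage, in which the second meiotic spindle waits for fertilisation. The young library came from females of 3 months and the aged library from females of 12 months. Each was a pool of 18 oocytes from 6 females, 3 oocytes each, lysed in 1 tube, so that differences between females cannot be seen. The labels give no genotype change or drug for either group, and the study's title concerns BubR1 and aneuploidy in ageing oocytes. Total counts were 19475110 (young) and 18597656 (aged). The oocyte markers Gdf9, Mos, Zp3 and Bmp15 were abundant in both, with 1891007 and 795892 counts for Gdf9.

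With 1 library per age there is no replicate check and no test of age. Folds are ratios of CPM, the count scaled to an equal library total, and their 95% intervals (Clopper-Pearson) cover counting error of reads only. PCR copies of 1 molecule may count more than once, so the intervals may be too narrow for molecules of RNA. In such pools, less RNA of a gene per cell and fewer cells that hold it cannot be told apart. A gene was compared when its mean over both libraries was at least 20 counts, called the floor below, and was called higher or lower when the ratio was at least 2-fold.

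Actin filaments move the meiotic spindle from the middle of the oocyte to its edge and anchor it there. A cytoplasmic mesh nucleated by Fmn2 with Spire proteins, and a cortical layer built by the Arp2/3 complex under the control of Cdc42 and Rac1, are well studied examples. Myosin and the ring proteins then pinch off the small polar body, which leaves the egg with nearly all of its cytoplasm.

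Of the 50 genes 42 lay above the floor. Aged exceeded young by 2-fold or more in 16 of them (38.1%), a share that was 27.9% among all 10211 genes above the floor. Young exceeded aged by as much in 4 (9.52%), against 10.6% of all genes. For all 16 and all 4 the whole counting interval was beyond 2-fold, a rule that 18.0% and 6.35% of all genes met. The log2 ratio (aged over young) was above 0 in 29 of the 42 (69.0%), against 66.4% of all genes, and its median was 0.75 for the 42 and 0.43 for all genes. The median gene thus lay above equality although the library totals were scaled to be equal. After centring on the median gene 9 of the 42 were at least 2-fold higher and 4 lower, against 16.0% and 17.3% of all genes. The excess of higher over lower members therefore shrank but kept its direction, and the members spanned log2 ratios from −3.20 (Ezr) to 2.02 (Cfl2). Higher under library totals, TMM scaling, median centring, totals without the 100 most abundant genes and a correction for transcript length and GC content were 5 genes, namely Arpc1b, Wasf1, Cfl2, Pfn2 and Rdx. Lower under all of these were 4, namely Cfl1, Ezr, Myo10 and Anln. TMM scaling, centring and totals without the 100 most abundant genes lower every ratio alike. A lower call could therefore be lost only under the correction for length and GC content. Ezr passed the floor through its young count alone. The authors' deposited table marked 24 of the 42 as higher and 8 as lower in the aged library, against 47.0% and 19.5% of all genes, by p-values that compare the reads of 2 libraries.

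**Figure D1:**
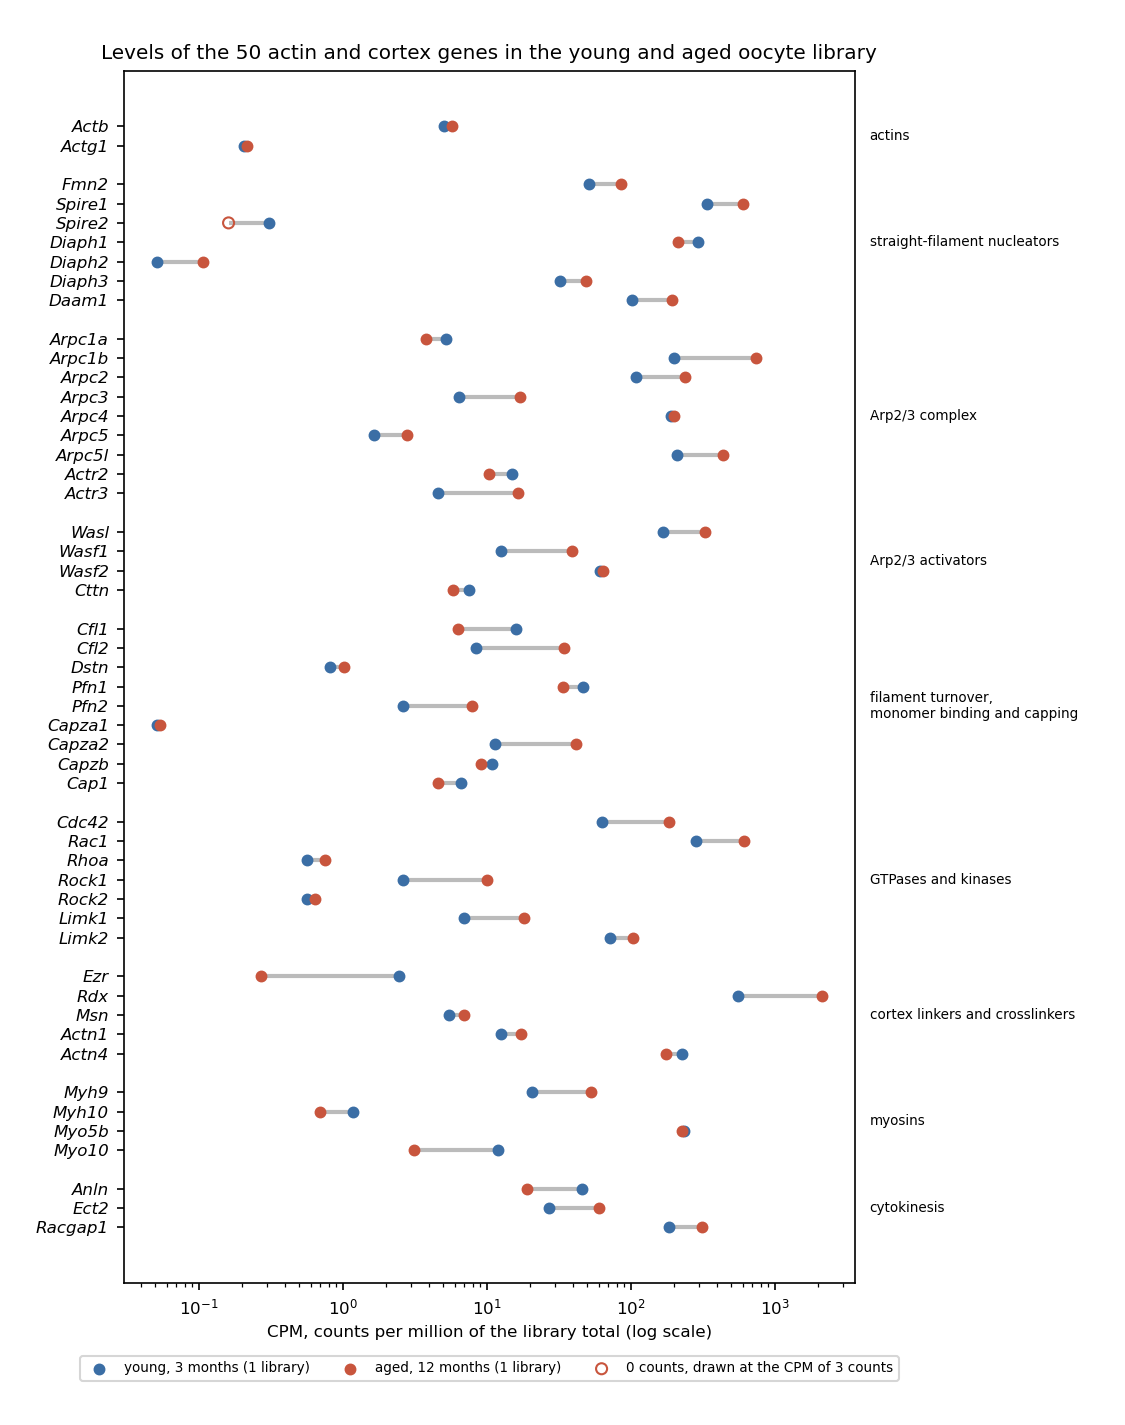
Level of each of the 50 genes in the young (blue) and aged (red) library, in CPM on a log axis, grouped by role. Each point is 1 library, and the open circle marks Spire2, which had 0 counts in the aged library. Rdx had the highest CPM with 559 and 2123 CPM, and Actg1, Diaph2 and Capza1 lay near the lowest level that can be measured.

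The actins themselves gave few counts. Actb, which encodes beta-actin, had 98 (young) and 107 (aged) counts, 5.03 and 5.75 CPM, a ratio of 1.14 (0.861 to 1.52). Actg1, which encodes gamma-actin, had 4 counts in each. Both genes share sequence with transcripts of many other genes. In the transcripts of GENCODE release M21, 34.7% of the 31-base windows of Actb and 57.1% of those of Actg1 also occurred in a transcript of another gene. For Actb the largest shares were with Lrrc58, 22.7% of windows and 61 and 126 counts, and Gm15725, 14.7% and 13 and 46 counts. For Actg1 the copy Gm12715 holds 53.6% of the windows and had 0 and 2 counts. The sources used here do not say how reads that match several genes were counted, so the level of the actin transcripts is uncertain and its comparison with other genes is not used. Rhoa, with 11 and 14 counts and 17.0% shared windows, and Capza1, with 1 count in each library and 80.3% shared windows, are uncertain in the same way. Of the 50 genes 7 had 15% or more of their windows shared, and 4 of these lay above the floor, against 38 of the other 43. The part of shared sequence in the low counts of Actb, Actg1, Rhoa and Capza1 was not tested.

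Of the 7 nucleators of unbranched filaments 5 lay above the floor, and these 5 differed by less than 2-fold. Spire1, which gathers actin monomers for Fmn2, had 6593 (young) and 11176 (aged) counts, 339 and 601 CPM, and was 1.78-fold higher (1.72 to 1.83). Fmn2, the formin that builds the cytoplasmic mesh, had 995 and 1583 counts, 51.1 and 85.1 CPM, a ratio of 1.67 (1.54 to 1.81). These partners thus had similar ratios. Daam1, a formin of the Wnt pathway, had 1979 and 3623 counts and was 1.92-fold higher (1.81 to 2.03). Diaph3, of the Diaphanous formins, had 633 and 904 counts, a ratio of 1.50. Its relative Diaph1 lay on the other side of equality with 5723 and 3971 counts, 1.38-fold lower (1.32 to 1.43). Relative to the median gene the log2 ratios were 0.40 for Spire1, 0.31 for Fmn2, 0.51 for Daam1, 0.16 for Diaph3 and −0.89 for Diaph1. Per kilobase of transcript, Spire1 (62.6 and 111 CPM per kilobase) lay above Fmn2 (7.93 and 13.2) and Diaph1 (51.2 and 37.2) above Diaph3 (7.09 and 10.6) in both libraries. Spire2 had 6 and 0 counts, where 0 counts allow up to 0.161 CPM in the aged library, and Diaph2 had 1 and 2. Both lay below the floor and no fold is given.

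The Arp2/3 complex, which starts branches on existing filaments, is made of the actin-related proteins Arp2 (Actr2) and Arp3 (Actr3) and the Arpc subunits. All 9 genes of the complex lay above the floor, 5 had a 2-fold or larger excess in the aged library and none was lower by as much, beside 27.9% and 10.6% of all genes. After centring on the median gene the higher ones were 2, Arpc1b and Actr3, and with TMM scaling 3, where 16.0% and 17.2% of all genes were. After the correction for length and GC content Arpc1b and Arpc3 were higher and Actr2 was lower, beside 13.6% and 14.9% of all genes. Together the 9 genes reached 742 CPM (young) and 1673 CPM (aged), a ratio of 2.26.

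Arpc1b had the largest difference, with 3911 (young) and 13871 (aged) counts, 201 and 746 CPM, which is 3.71-fold higher (3.58 to 3.85). Of its windows 22.3% occurred elsewhere, mostly in the copy Gm5637, which had 616 and 866 counts. Actr3 had 89 and 309 counts and was 3.64-fold higher (2.86 to 4.66), but 63.6% of its windows were shared, nearly all with the copy Gm8822, which had 17 and 35 counts. Both genes and their copies had more counts in the aged library. How reads were divided between gene and copy is not known, so both ratios are uncertain in the way of Actb. Actr3 was within 2-fold after the correction for length and GC content. Arpc3, a small subunit next to Arp3, had 125 and 315 counts, 2.64-fold higher (2.14 to 3.27). Arpc2, of the core that binds the mother filament, had 2136 and 4420 counts, 2.17-fold higher (2.06 to 2.28). Arpc5l, which can stand in for Arpc5, had 4073 and 8146 counts, 2.09-fold higher (2.02 to 2.18). Arpc2 and Arpc5l were within 2-fold under each of the other scalings.

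The other 4 subunits were within 2-fold. Arpc4, the partner of Arpc2 in the core, had 3685 and 3739 counts, a ratio of 1.06 (1.01 to 1.11). Actr2 had 294 and 192 counts and was 1.46-fold lower (1.22 to 1.76). Arpc1a, the alternative to Arpc1b, had 101 and 70 counts and was 1.38-fold lower (1.01 to 1.90), and Arpc5 had 32 and 52 counts, 1.70-fold higher (1.08 to 2.73), an interval that includes 2-fold. Subunits of 1 complex thus had unequal transcript levels and unequal ratios. Per kilobase the range over the 9 genes was 0.858 to 156 CPM in the young and 1.46 to 327 CPM in the aged library. The highest was Arpc5l and the lowest Arpc5 in both.

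**Figure D2:**
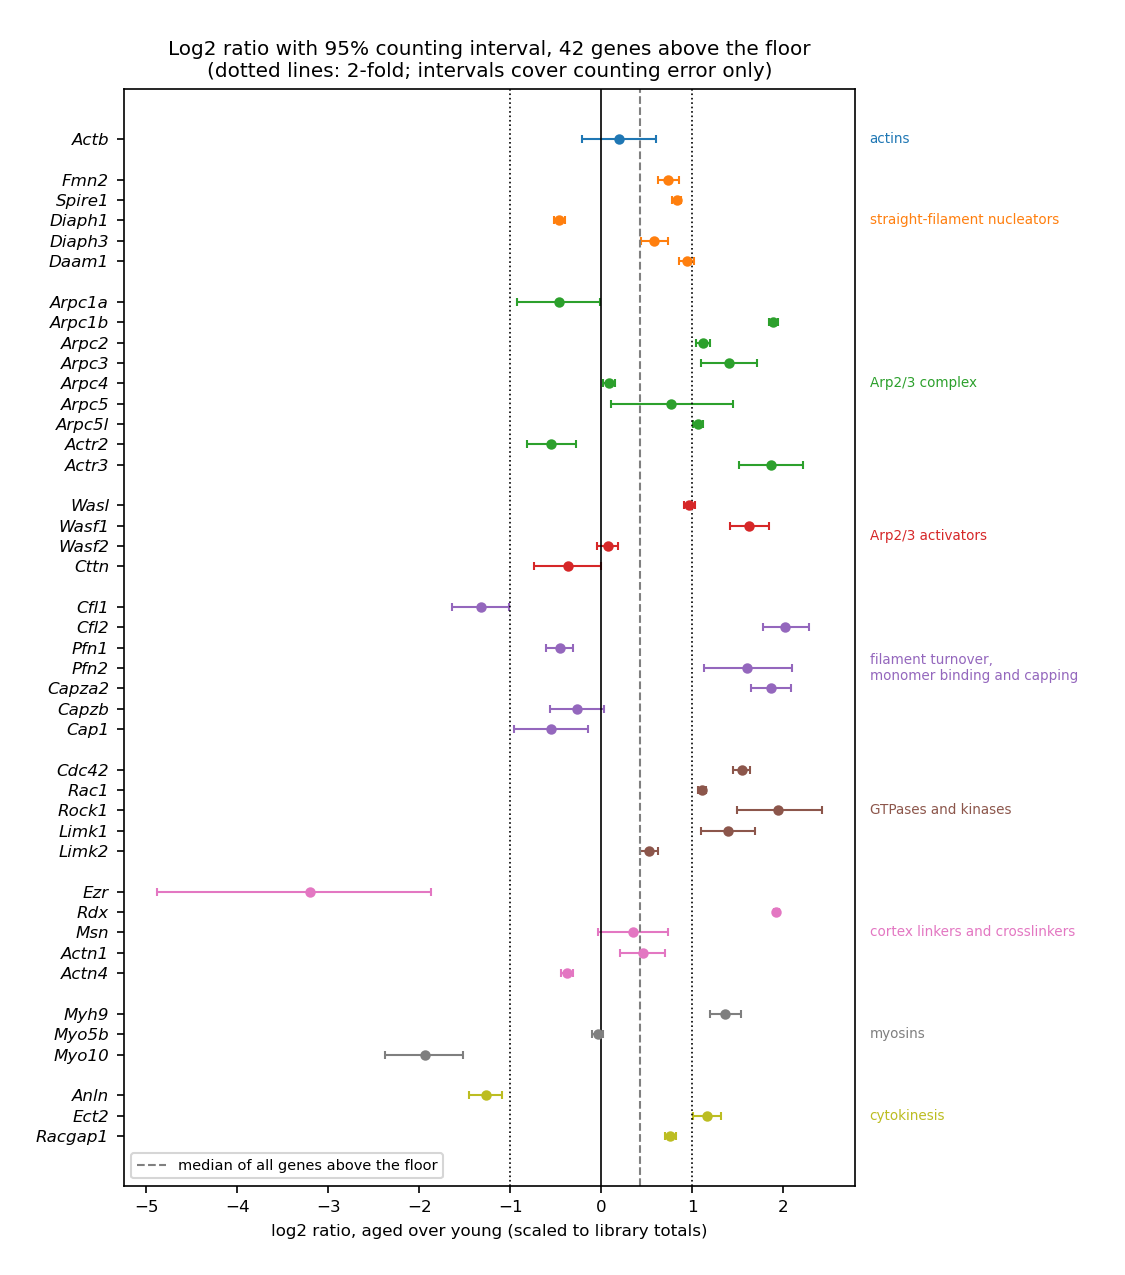
Log2 ratio of aged over young with its 95% counting interval for the 42 genes above the floor, grouped by role. Dotted lines mark 2-fold and the dashed line the median of all genes at 0.43. Members lie from −3.20 (Ezr) to 2.02 (Cfl2), and within most roles genes lie on both sides of the dashed line.

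The activators of the Arp2/3 complex differed among themselves. Wasf1, which encodes WAVE1, had 245 (young) and 722 (aged) counts, 12.6 and 38.8 CPM, which is 3.09-fold higher (2.67 to 3.58). Wasf2, which encodes WAVE2, the form that acts downstream of Rac1 in many cells, had 1200 and 1203 counts, a ratio of 1.05 (0.968 to 1.14). Wasl, which encodes N-WASP, the effector of Cdc42, had 3263 and 6102 counts and was 1.96-fold higher (1.88 to 2.04), just short of 2-fold. Cttn, which encodes cortactin, a stabiliser of branches, had 146 and 108 counts and was 1.29-fold lower (1.00 to 1.67). Relative to the median gene the log2 ratios were 1.20 for Wasf1, 0.54 for Wasl, −0.36 for Wasf2 and −0.79 for Cttn.

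The GTPases that switch these activators on were abundant and higher in the aged library. Cdc42, which sets the polarity of the cortex above the spindle, had 1225 (young) and 3411 (aged) counts, 62.9 and 183 CPM, 2.92-fold higher (2.73 to 3.12). Rac1 had 5544 and 11408 counts, 285 and 613 CPM, 2.16-fold higher (2.09 to 2.23). Cdc42 stayed 2-fold higher with median centring (log2 ratio 1.12) but not with the correction for length and GC content, and Rac1 with neither (0.68 after centring). Rock1, a kinase of myosin contraction, had 51 and 188 counts and was 3.86-fold higher (2.82 to 5.37), while Rock2 lay below the floor with 11 and 12. Limk1, which inactivates cofilin by phosphorylation, had 135 and 338 counts, 2.62-fold higher (2.14 to 3.23). Limk2, which does the same, had 1400 and 1927 counts, 1.44-fold higher (1.35 to 1.55). All 5 genes of this group above the floor thus had ratios above that of the median gene, and 4 were at least 2-fold higher with library totals, 2 after centring and 3 with TMM scaling, beside 27.9%, 16.0% and 17.2% of all genes. After the correction for length and GC content 1 was, Limk1, beside 13.6%, and Rock1 had a log2 ratio of 0.94.

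Cofilins sever old filaments, and their genes differed in opposite directions. Cfl1, the non-muscle form, had 309 (young) and 118 (aged) counts, 15.9 and 6.35 CPM, which is 2.50-fold lower (2.02 to 3.12). Cfl2, known as the muscle form, had 165 and 641 counts, 8.47 and 34.5 CPM, which is 4.07-fold higher (3.42 to 4.86). Cfl1 thus held 65.2% of the pair's counts (60.7% to 69.5%) in the young library and 15.5% (13.04% to 18.3%) in the aged one. The ratio of Cfl2 to Cfl1 differed 10.2-fold (7.68 to 13.5) between the libraries, a value that no scaling of the totals alters. Per kilobase Cfl1 lay above Cfl2 in the young library (6.74 and 2.88 CPM per kilobase) and below it in the aged one (2.69 and 11.7). The transcripts differ in GC content, 51.2% for Cfl1 and 36.9% for Cfl2, and after the correction for length and GC content Cfl1 was still at least 2-fold lower and Cfl2 at least 2-fold higher. Of the windows of Cfl1 16.3% were shared with other transcripts, so Cfl1 is uncertain in the way of Actb. Dstn, the third gene of the family, lay below the floor with 16 and 19 counts.

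Profilins, which load actin monomers onto formins, were also split with library totals. Pfn1, the ubiquitous form, had 910 and 633 counts, 1.37-fold lower (1.24 to 1.52), and Pfn2 had 51 and 148 counts, 3.04-fold higher (2.20 to 4.26). Pfn1 kept the larger share of the pair, 94.7% and 81.1% of counts, and was also higher per kilobase in both libraries. After the correction for length and GC content the log2 ratio was 0.004 for Pfn1 and 1.44 for Pfn2. Among the capping protein genes, whose products close the growing end as a dimer, Capza2 of the alpha subunit had 224 and 779 counts, 3.64-fold higher (3.14 to 4.24). Capzb of the beta subunit had 213 and 169 counts, 1.20-fold lower (0.979 to 1.48). Capza2 relative to Capzb thus differed 4.38-fold (3.38 to 5.68). Capza2 was within 2-fold after the correction for length and GC content. Cap1, which recycles actin monomers with cofilin, had 130 and 85 counts and was 1.46-fold lower (1.10 to 1.94).

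**Figure D3:**
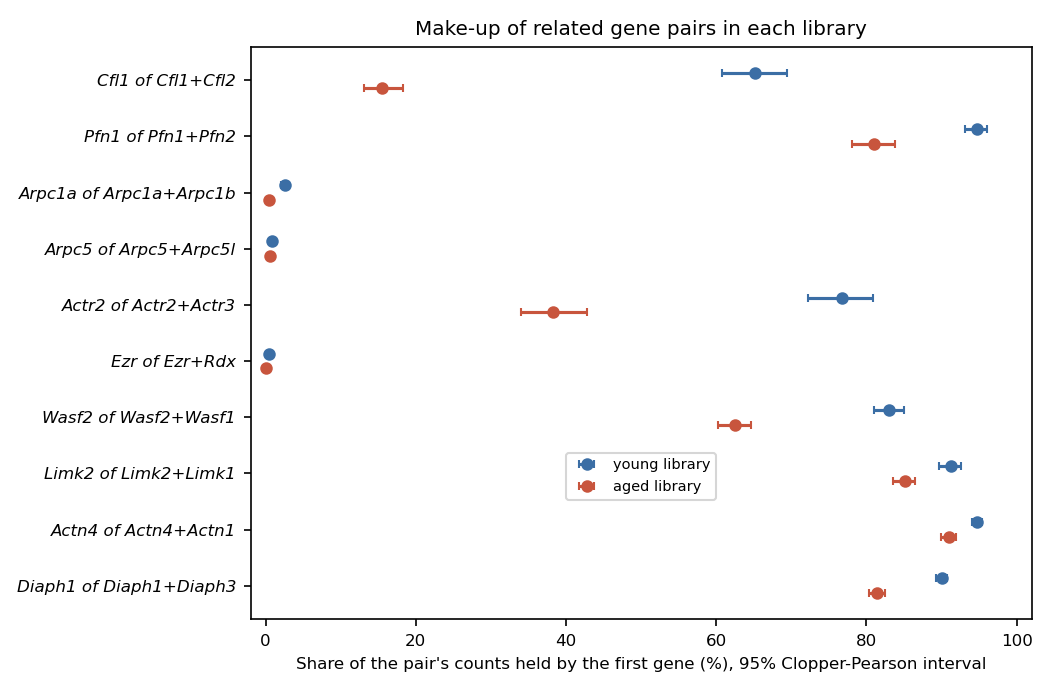
Share of a gene pair's counts held by the gene named first, in the young (blue) and aged (red) library, with 95% Clopper-Pearson intervals. The pairs are related genes above the floor, and shares are of counts, not corrected for transcript length. The share of Cfl1 is 65.2% and 15.5%, and that of Actr2 beside Actr3 76.8% and 38.3%.

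The related genes of the list were set against each other after their values had been seen. Beside the pairs above, Arpc1b relative to Arpc1a differed 5.12-fold (3.73 to 7.06), Wasf1 relative to Wasf2 2.94-fold (2.48 to 3.48), Diaph3 relative to Diaph1 2.06-fold (1.84 to 2.30), Limk1 relative to Limk2 1.82-fold (1.47 to 2.26) and Actn1 relative to Actn4 1.78-fold (1.50 to 2.13), each in favour of the gene named first in the aged library. For Arpc5l relative to Arpc5 the ratio was 1.23 (0.765 to 1.95), and its interval includes equality. These values do not depend on the scaling but can carry differences in GC content between the genes and, for Arpc1b, reads shared with copies.

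The linkers of the ERM family tie filaments to the plasma membrane, and are found in microvilli such as those that cover the egg. Rdx, which encodes radixin, had the most counts of the 50 genes, with 10886 (young) and 39486 (aged) counts, 559 and 2123 CPM. It was 3.80-fold higher (3.72 to 3.88), and at 485 CPM per kilobase it stood above 98.6% of the genes above the floor in the aged library, with 128 CPM per kilobase in the young one, where Arpc5l lay above it with 156. Ezr, which encodes ezrin, had 48 and 5 counts and was 9.17-fold lower (3.67 to 29.5). Ezr passed the floor through its young count alone, so that a difference follows from the way it was admitted. Msn, which encodes moesin, had 106 and 129 counts, a ratio of 1.27 (0.978 to 1.66). The family thus held 1 gene far higher, 1 far lower and 1 near equality, with radixin at least 90.1 times the level of the others per kilobase in either library.

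Ezr and Cfl1 are also expressed by somatic cells, and markers of the cells around the oocyte differed between the libraries in both directions. Of 20 markers of cumulus, granulosa and luteal cells, 13 had a count in young and 9 in aged oocytes. Vim had 51 and 0 counts, Cyp11a1 27 and 1, Fst 14 and 0, Inha 14 and 0 and Gja1 11 and 0. In the other direction, Fshr had 0 and 16 counts, Nr5a2 38 and 106 and Cyp19a1 436 and 1056. Above the floor were 5 of these markers, 2 of them higher by 2-fold or more and 1 lower. The summed level of the 20 was 539.9 and 592 CPM, nearly all from Serpine2, with 9833 and 9769 counts, and Cyp19a1. Over 9 blood and immune markers there were 2 counts in young and 0 in aged oocytes. The 12 markers of oviduct, stroma and endothelium summed to 30.7 and 51.9 CPM, mostly from Pecam1, with 381 and 723 counts. Of these 12, 11 had a count in young and 8 in aged oocytes. They differed in both directions, with 4 and 36 counts for Acta2, 19 and 7 for Col1a1 and 11 and 0 for Krt18. Amh and Foxl2, defining granulosa genes, carried no count in either library. The part of such cells in the values of Ezr and Cfl1 was not tested.

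The crosslinkers of the alpha-actinin family differed little. Actn4 had 4421 and 3246 counts, 1.30-fold lower (1.24 to 1.36), and Actn1 had 246 and 322, 1.37-fold higher (1.16 to 1.63). Actn4 was the more abundant per kilobase, with 58.6 and 45.02 CPM per kilobase against 3.38 and 4.64.

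Among the myosins, Myh9, the heavy chain of nonmuscle myosin IIA, had 401 (young) and 986 (aged) counts, 20.6 and 53.0 CPM, 2.58-fold higher (2.29 to 2.90). It was within 2-fold after median centring (log2 ratio 0.94) and with TMM scaling. Myh10, of myosin IIB, lay below the floor with 23 and 13 counts. Myo5b, which carries Rab11 vesicles that drive the cytoplasmic mesh, had 4540 and 4218 counts, a ratio of aged to young within 1.03-fold of equality (log2 ratio −0.04) and −0.47 relative to the median gene. Myo10, a motor of filopodia that also binds microtubules, had 233 and 58 counts, 12.0 and 3.12 CPM, and was 3.84-fold lower (2.87 to 5.21). Of the 10211 genes above the floor 372 had a lower ratio than Myo10.

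The cytokinesis genes were split as well. Anln, which encodes anillin, the scaffold that joins actin, myosin and septins in the contractile ring, had 889 (young) and 352 (aged) counts, 45.6 and 18.9 CPM, which is 2.41-fold lower (2.13 to 2.74). Ect2, the exchange factor that activates Rhoa at the division site, had 525 and 1124 counts and was 2.24-fold higher (2.02 to 2.49). Racgap1, a subunit of the centralspindlin complex, had 3606 and 5821 counts and was 1.69-fold higher (1.62 to 1.76). Ect2 was within 2-fold under each of the other scalings, with a log2 ratio of 0.74 after median centring and 0.07 after the correction for length and GC content. Anln was at −1.70 after median centring.

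The ratio followed GC content in these genes as in the whole table. Across the 42 genes Spearman's rho between log2 ratio and GC content of the longest coding transcript was −0.43, and across 9902 genes it was −0.40, both within 1 pair of libraries and across genes that are not independent replicates. Of 10 members with GC content under 45%, 7 were higher by 2-fold or more and 0 lower, where 46.6% and 3.24% of all such genes were. Of 23 members with 50% or more, 5 were higher and 3 lower, against 16.1% and 16.5%. With the median of genes in the same class of length and GC content taken off each ratio, 8 of the 42 were at least 2-fold higher and 5 lower, against 13.6% and 14.9% of 9902 genes. The members' median log2 ratio was then 0.11, beside 0.32 after centring on the median gene. The part of GC content in the members' ratios was not tested further.

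**Figure D4:**
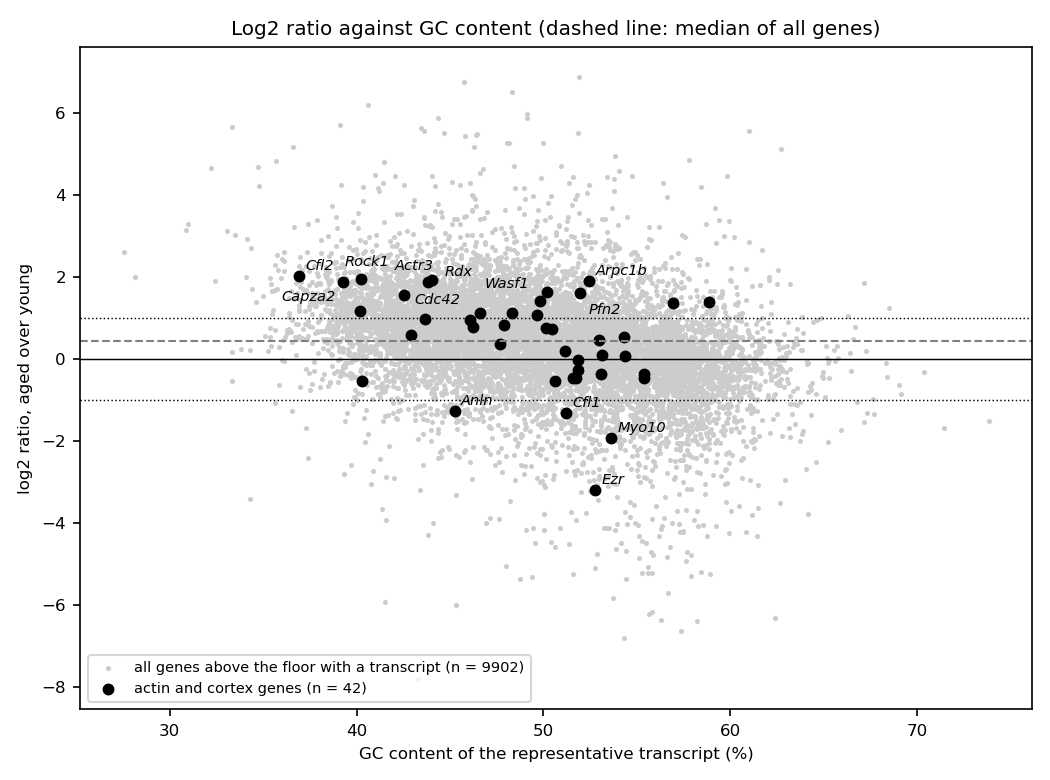
Log2 ratio of aged over young against GC content of the representative transcript for 9902 genes (grey) and the 42 actin and cortex genes (black). The 9 highest and the 4 lowest members are named. Cfl2, Capza2 and Rock1 lie at the low end of GC content, whereas Arpc1b, Wasf1 and Pfn2 are high at a GC content above 50%.

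MII oocytes do not transcribe, and the poly(A) tails of stored messages are lengthened or shortened through elements near the 3′ end. One is the cytoplasmic polyadenylation element, searched here as TTTTAT or TTTTAAT on the sense strand in the last 100 bases of the longest coding transcript. Since cDNA was primed with oligo(dT), the 3′ ends of 4 of the members that hold this element are shown. Of the 50 genes 8 held it. Of the 42 above the floor 7 did (16.7%), against 20.9% of 8904 coding genes above the floor with a 3′ UTR of at least 100 bases. These 7 had a median log2 ratio of −0.27, with 1 gene at least 2-fold higher and 1 lower, and the 35 without it had 0.77. Over all such coding genes the medians were 0.38 with the element and 0.46 without, and 469 of the 1862 with it were higher and 188 lower. Among the 8 were both Rdx, higher in the aged library, and Anln, lower in it, and no factor's action can be read from the letters. Windows of 30 bases around the element are given for these and for Actr2 and Actn4, from the transcripts of GENCODE release M21 (build GRCm38, sense strand), with the element and any poly(A) signal (AATAAA or ATTAAA) in capitals. The element starts 83 bases from the transcript's end in Rdx, 37 in Anln, 37 in Actr2 and 75 in Actn4.
Rdx: gcataaTTTTATgttgtacaagtaaattac
Anln: aaagtaTTTTATgacataAATAAAtaattg
Actr2: acttctTTTTAATtaagaaAATAAAtaaga
Actn4: attgatTTTTATtttcttggtttctggata
In Anln and Actr2 the element lies right before the poly(A) signal, and in Rdx and Actn4 the signal lies further downstream, 20 and 29 bases from the end. The oocyte may use other 3′ ends than the longest transcript.

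Of 129 other genes of the actin pathway, in 8 lists, 127 were matched to the table and 120 carried counts. Of these 96 lay above the floor, 26 at least 2-fold higher and 9 lower, shares of 27.1% and 9.38% against 27.9% and 10.6% of all genes. Their median log2 ratio was 0.47, close to the 0.43 of all genes. These shares lay near the background. The genes named below include the 2 of each list furthest from the median gene, so that the size of these follows from the choice. Washc3, Twf2, Tmsb10, Flna and Enah, like Ezr, passed the floor only through the library in which they were high. After the correction for length and GC content 11 of the 96 were higher by 2-fold or more and 11 lower, beside 13.6% and 14.9% of all genes. The WAVE and WASP regulators and the septin and cytokinesis genes then had 0 higher. Counts after median centring in the lists below stand beside 16.0% higher and 17.3% lower among all genes.

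Of the 8 lists, other myosins and Rab11 genes had the highest median (1.11), with 6 of 12 higher by 2-fold or more and 0 lower, and 4 after median centring. Myo6, the motor that walks to the pointed end, had 35 and 218 counts, 6.52-fold higher (4.55 to 9.61), and Myo1e, a membrane motor, had 25 and 168, 7.04-fold higher (4.61 to 11.2). Of the tropomyosins and myosin light chains, which coat filaments and regulate contraction, 4 of 8 were higher and none lower, 1 after median centring. Tpm4 had 37 and 162 counts, 4.58-fold higher, and Tpm3 45 and 112, 2.61-fold higher. Of the windows of Tpm3 70.4% and of those of Tpm4 16.5% were shared with other transcripts, so both are uncertain in the way of Actb.

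The genes of WAVE, WASP and Arp2/3 regulation had 4 of 15 higher and 2 lower. Among the 4 were Nckap1, with 1278 and 3509 counts, 2.88-fold higher, and Abi1, with 1209 and 3053, 2.64-fold higher. Coro1c, a coronin of branch turnover, had 209 and 60 counts, 3.33-fold lower (2.49 to 4.51), and Washc3, of the WASH complex on endosomes, 35 and 12, 2.79-fold lower. Among other formins 1 of 5 was higher and 2 were lower. Fmnl3 had 4175 and 1626 counts, 2.45-fold lower (2.31 to 2.60), and Inf2, a formin of organelle membranes, 270 and 116, 2.22-fold lower. Both lay on the side of equality where Diaph1 lay. The other 3 lay on the side of Fmn2 and Daam1. Fmnl2 had 131 and 351 counts, 2.81-fold higher, Fhod1 57 and 91, 1.67-fold higher, and Fhod3 16660 and 17550, 1.10-fold higher.

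Of the other genes of monomer binding and capping 2 of 12 were higher and 2 lower. Higher were Cobl, with 271 and 1907 counts, 7.37-fold higher (6.49 to 8.40), and Tmod3, with 96 and 287, 3.13-fold higher. Cobl kept a log2 ratio of 2.41 after the correction for length and GC content. Tmsb10, which encodes a thymosin that holds actin monomers, had 87 and 15 counts, 5.54-fold lower (3.18 to 10.3), with 52.4% of its windows shared, and Twf2, which encodes a twinfilin, 33 and 7, 4.50-fold lower. The crosslinkers and adhesion linkers had the lowest median (−0.04), with 4 of 17 higher and 2 lower, or 2 and 6 after median centring. Flna, a filamin that crosslinks filaments, had 130 and 12 counts, 10.3-fold lower (5.72 to 20.5), and Enah, an elongation factor of the Ena/VASP family, 13 and 90, 7.25-fold higher (4.03 to 14.1). The markers of other cells given above differed between the libraries in both directions, and the part of such cells in Flna was not tested.

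The genes of cortical polarity and Ran, the signal that chromatin sends to the cortex, had 1 of 15 higher and 1 lower. Pard6g, of the Par complex, had 310 and 998 counts, 3.37-fold higher (2.97 to 3.84), and Pard3b 54 and 22, 2.34-fold lower (1.40 to 4.04). Ran itself had 133 and 157 counts, with 20.6% of its windows shared. Septin and cytokinesis genes had 4 of 12 higher and none lower, 1 after median centring. Pak1, a kinase that Cdc42 and Rac1 activate, had 488 and 1270 counts, 2.73-fold higher (2.45 to 3.03), and Septin7 had 49 and 121, 2.59-fold higher (1.84 to 3.68).

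**Figure D5:**
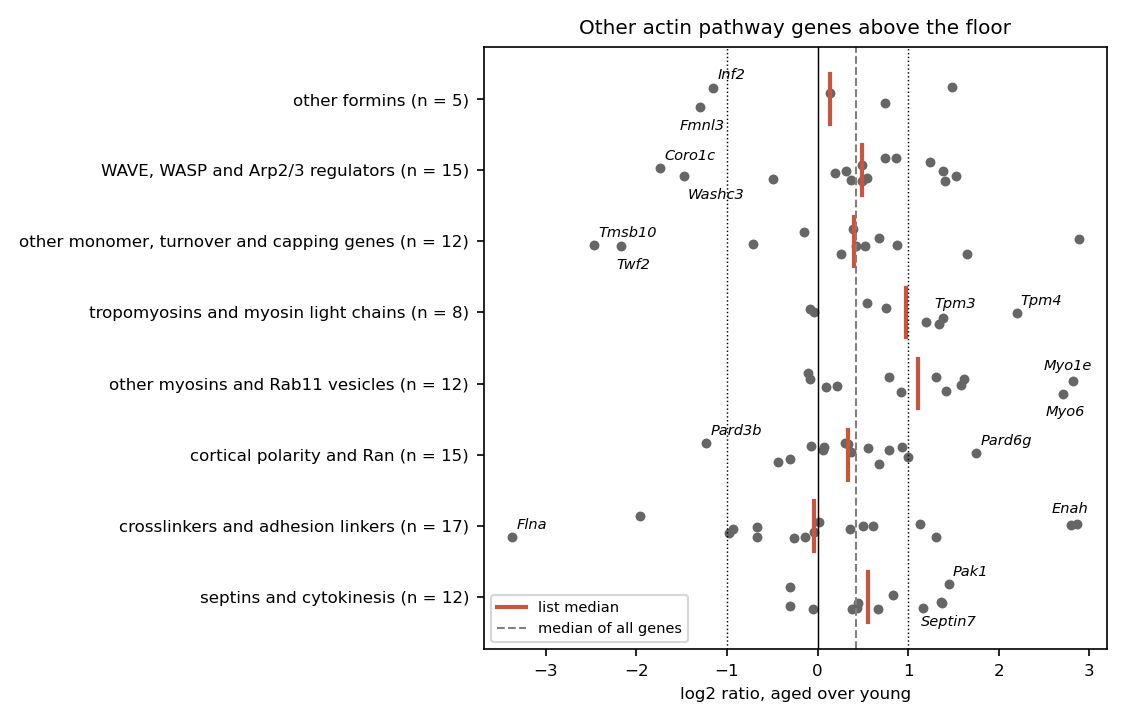
Log2 ratio of aged over young for the 96 other actin pathway genes above the floor, 1 point per gene, with the median of each list in red. Dotted lines mark 2-fold and the dashed line the median of all genes at 0.43. The list medians lie between −0.04 and 1.11, and 61 of the 96 genes lie within 2-fold.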

How the data were processed

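Per the labels' protocols, each pool of 18 oocytes was lysed in 1 tube, reverse transcription started from a primer with 24 bases of oligo(dT), and 18 and then 14 cycles of PCR preceded SOLiD sequencing. The build is mm9, per the submitters' processing notes. Aligner, annotation, use of strand and treatment of reads with several matches: not given in the sources used here. No molecular identifiers are described, and PCR copies of 1 molecule may count more than once.

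The authors deposited 1 table of whole-number counts, unnormalized, with counts for 18364 of its 36227 genes, and the authors' deposited log2 fold changes, score (a z value) and p-value and q-value columns, whose program is not named. From these columns only the number of genes marked at p below 0.001 was used. All 15387 deposited log2 fold changes matched those recomputed from the counts within 1e-06.

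Symbols came from GENCODE mouse release M21 by Ensembl ID (93.7% of counted rows), with septin names found through RefSeq synonyms, and length and GC content from each gene's longest complete coding transcript. CPM per kilobase divides by that length, which oligo(dT) priming may not suit. In the CPM ratio 3 counts replaced 0. Python 3.11.15 with numpy 2.4.6, scipy 1.17.1 and pandas 2.3.3 was used, edgeR 4.0.16 for TMM factors only. The calculation was tested on simulated data. The named genes are all members and, of each other list, the 2 genes furthest from the median gene, with some others of those lists. Members, lists and alternatives were chosen with earlier results of these data known, and the alternatives for the other pathway genes were added after seeing the data.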

Additional observations from a re-analysis of the deposited data

How the results depend on the processing

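The number of members with a 2-fold or larger excess in the aged library, 16 with library totals, was 9 after centring on the median gene and 8 less the length and GC class median. It lay between 11 and 17 with TMM scaling, totals without the 100 most abundant genes, no floor, a floor of 100 counts, 5 counts added and the interval rule. The count of lower members stayed between 3 and 5. The members' median log2 ratio of 0.75 was 0.37 with TMM, 0.32 after centring, 0.46 without the 100 most abundant genes, 0.49 with no floor and 0.11 less the length and GC class median. Of the 96 other pathway genes, 26 higher and 9 lower became 17 and 14 with TMM and 13 and 14 after centring. All genes had 17.2% higher and 16.3% lower with TMM, and 16.0% and 17.3% after centring. Less the length and GC class median, 11 pathway genes were higher and 11 lower, beside 13.6% and 14.9% of all genes. With a floor of 100 counts 15 and 3 of 63 were. Lower were 16 of 120 with no floor and 5 of 96 by the interval, beside 6.35% of all genes by the interval. Shares over all genes were not computed for no floor, a floor of 100 counts, 5 counts added or totals without the 100 most abundant genes. Counts of members and pathway genes under those settings therefore have no background beside them. TMM, centring and totals without the 100 most abundant genes each lower every log2 ratio by the same amount, 0.37 for TMM and 0.43 for centring. A member called at 2-fold could therefore not change direction under them. No paired analysis was possible because each age has 1 library. Genes with few counts, such as Ezr, Arpc5 and the 8 members below the floor, are limited by depth.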
